A study of Lotus japonicus with 18 samples.

Results

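The deposited expression table of Lotus japonicus shoots describes 5 of its 33994 entries as Transcription factor MYB36, and these 5 genes are followed here through every group of the study. They are all the genes with that description, which was assigned by similarity to a reference protein. The choice to follow them was made with earlier results of these data known. The series describes its mutants as knockouts of LjMYB36. Neither the labels nor the table says which of the 5 genes carries the mutation or what kind of mutation it is. The libraries are polyadenylated RNA from shoots of Lotus japonicus, a model legume, of 2 mutant genotypes labelled Lmyb36-1 and Lmyb36-2 (line 1 and line 2 below) and of wild-type (WT) plants. In the salt groups, NaCl in the nutrient solution was stepped up by 50 mM each time, at intervals of 4 days, until it stood at 100 mM, and the last level was held for 2 days. The control groups received the same solution without NaCl, and all shoots were taken after 34 days, 4 hours into the light period. The 6 groups are line 1 salt, line 1 control, line 2 salt, line 2 control, WT salt and WT control, with 3 libraries each, labelled as biological replicates. Whether replicates were separate pots or pools of plants is not stated, nor whether the lines are independent alleles, so p-values measure the spread between these libraries.

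MYB36 is a MYB-type transcription factor best known from the root endodermis of Arabidopsis. There it switches on the genes of the Casparian strip, a lignin belt around each endodermal cell that seals the space between cells and makes water and ions pass through the cells. Its known targets in Arabidopsis include the CASP membrane proteins, which mark the site of the belt, the peroxidase PER64 and a dirigent protein, which place the lignin. Loss of MYB36 in Arabidopsis roots delays the barrier and brings extra suberin and lignin at other places. The libraries here are shoots, where the endodermal barrier of the root is not sampled.

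All 5 genes carry the Myb-like DNA-binding domain of Pfam and are placed in the MYB family by the table, which lists 134 genes of that family. Coordinates are those of the deposited table, whose genome build is not given in the sources used here. LotjaGi4g1v0091600 lies on the plus strand of chromosome 4 (12168340 to 12170131), and its exons sum to 1445 bases. LotjaGi1g1v0688400 is on chromosome 1 (125564260 to 125566866, plus strand), with 1742 exonic bases. LotjaGi3g1v0486500 is on chromosome 3 (90391232 to 90394013, plus strand), with 2105 bases, and LotjaGi3g1v0167900 is on the same chromosome (22927234 to 22929388, minus strand), with 1723 bases. LotjaGi4g1v0298100 shares chromosome 4 with the first gene but lies far from it (67211036 to 67213329, minus strand), with 1981 bases. No 2 of the 5 genes are neighbours.

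Whole reads recovered from the table ran from 42125949 to 101713201 per library. A single read was worth between 0.00428 and 0.0166 FPKM for these genes, FPKM being reads scaled to gene length and to library depth. Within groups, 30.8% of the variance lay on a component. It was cut at its widest gap that leaves every group on both sides, from 0.736 to 9.51. That parts 10 libraries from 8, and these are columns 1 to 10 and 11 to 18 of the deposited table. A wider gap, from -33.2 to -23.2, lies at the far end of the component. Line 1 salt replicate 3 and line 1 control replicate 1 lay at the far end of that component, at -35.8 and -33.2. Libraries of a group differed beyond counting noise, with a median chi-square over genes of 2.098 in the closest pair. The shoot label was checked with 20 chlorophyll a-b binding protein and Rubisco small subunit genes, the most abundant of which averaged 13907 FPKM. Of 6 root and nodule genes, which are 4 leghemoglobins, a nitrate transporter and an expansin, none exceeded 0.841 FPKM in any library.

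Averaged over all 18 libraries, the 5 genes spanned a range of levels. LotjaGi4g1v0091600 was the most abundant at 3.70 FPKM, which ranks 30 among the 134 MYB family genes. It was followed by LotjaGi1g1v0688400 at 1.82 FPKM (rank 47), LotjaGi3g1v0486500 at 0.762 (rank 66), LotjaGi4g1v0298100 at 0.596 (rank 74) and LotjaGi3g1v0167900 at 0.355 (rank 86). Reads of all 5 were found in every library, the mutant lines included, and the lowest count was 4 reads. Reads summed over a whole gene cannot show whether a transcript is intact, so this neither identifies the mutated gene nor checks the genotype labels.

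**Figure D1:**
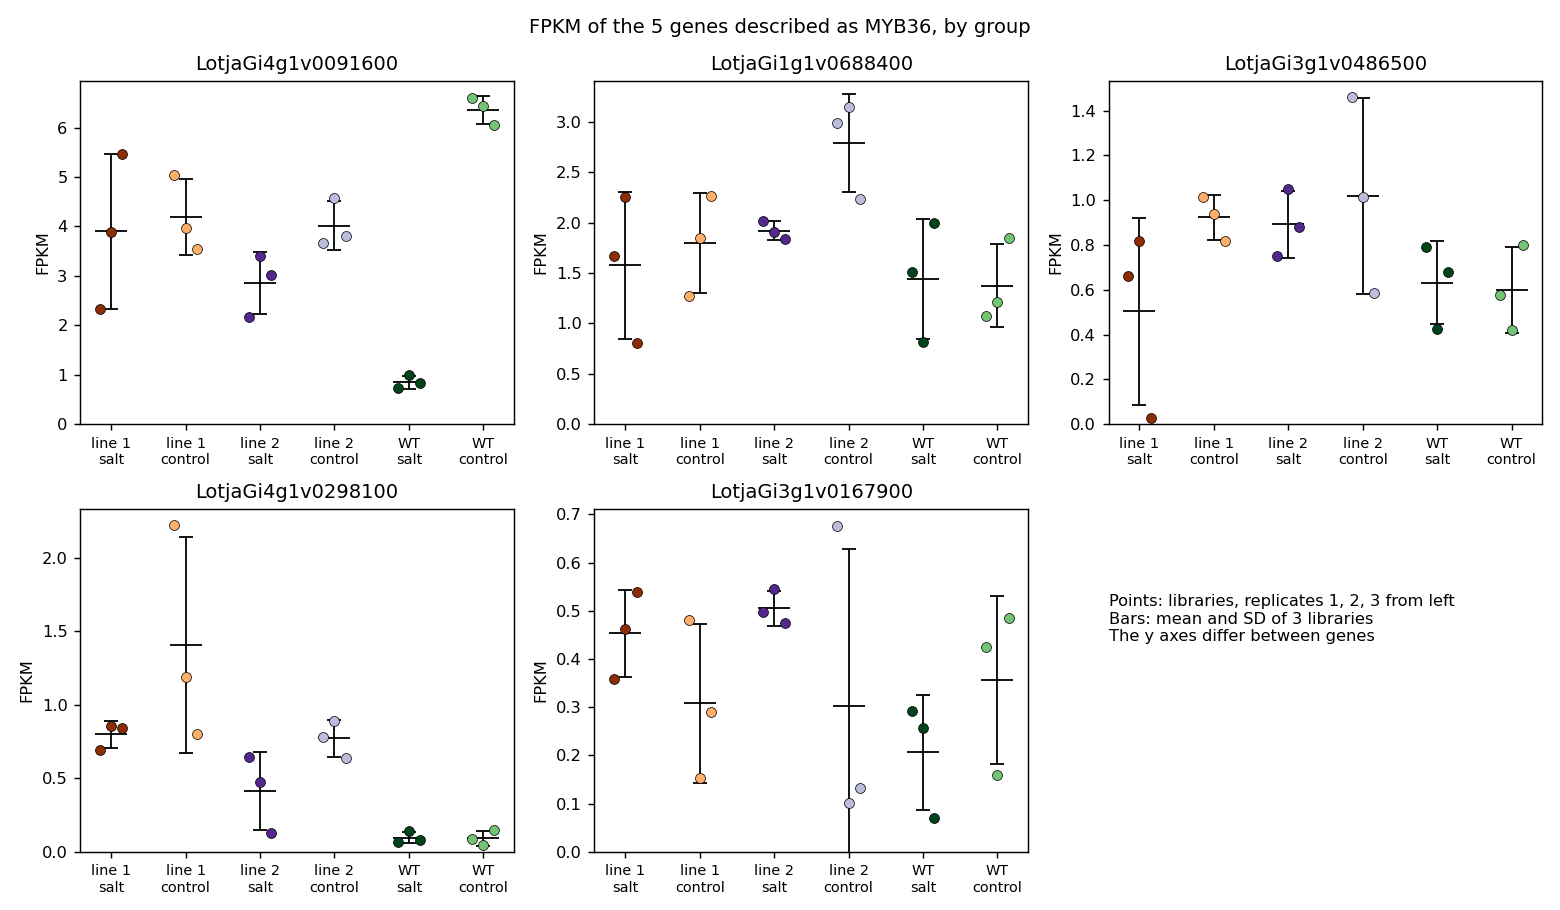
FPKM (y axis, a different scale for each gene) of the 5 genes described as MYB36 in the 6 groups (x axis). Points are libraries and bars the mean and SD of 3 libraries, the SD bar of LotjaGi3g1v0167900 in line 2 control being clipped at 0; LotjaGi4g1v0091600 is lowest in the 3 WT salt libraries, and LotjaGi4g1v0298100 is near 0 in all 6 WT libraries.

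The most abundant gene, LotjaGi4g1v0091600, fell with salt in WT shoots and kept a higher level in salt-treated shoots of both lines. In WT salt its 3 libraries had 0.727, 0.987 and 0.825 FPKM, and in WT control they had 6.60, 6.45 and 6.05 FPKM. The ranges lie far apart, with 69 to 113 reads behind the WT salt values, and the mean in WT salt was 0.133 of that in WT control. The log2 change was -2.35 (SE 0.22, limma adjusted p = 5.44e-07), on a comparison in which 16.3% of the 20433 genes tested passed. All log2 changes given are of FPKM + 0.5, a scale on which the change of a low gene comes out too small.

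With salt, the same gene in line 1 had 2.33, 3.90 and 5.47 FPKM, and in line 1 control 5.04, 3.98 and 3.54 FPKM. These ranges overlap, and the log2 change of -0.14 did not pass the test (95% interval -0.60 to 0.31, adjusted p = 0.78, with 8.61% of genes passing). In line 2 salt it had 2.16, 3.40 and 3.01 FPKM, and in line 2 control 3.67, 4.58 and 3.81 FPKM. Every line 2 salt library lies below every line 2 control library, but the log2 change of -0.44 did not pass either (interval -0.90 to 0.01, adjusted p = 0.21, with 8.66% of genes passing). The difference between genotypes was tested directly. The salt effect in line 1 minus that in WT was 2.21 on the log2 scale (SE 0.30, adjusted p = 2.59e-04, with 4.27% of genes passing). For line 2 it was 1.91 (SE 0.30, adjusted p = 5.97e-04, with 8.61% passing). Among the 8 libraries of the smaller set alone these differences were 2.23 and 2.36, and among the 10 of the larger set 2.39 and 1.69. Each set holds only 1 or 2 libraries a group, so only sizes are given here.

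Set against WT under salt, LotjaGi4g1v0091600 averaged 3.90 ± 1.57 FPKM in line 1 salt and 2.85 ± 0.631 in line 2 salt, against 0.847 ± 0.131 in WT salt (SD, n = 3 each). It was higher in both lines, by a log2 change of 1.65 in line 1 (SE 0.22, adjusted p = 3.66e-05, with 16.0% of genes passing) and 1.30 in line 2 (SE 0.22, adjusted p = 2.87e-04, with 25.1% passing). All 6 mutant libraries lie above all 3 WT libraries. Without salt the means were 4.19 ± 0.768 FPKM in line 1 control and 4.02 ± 0.490 in line 2 control, against 6.36 ± 0.285 in WT control. Here too the ranges of each line and WT do not overlap, but neither log2 change passed (-0.56 and -0.61, adjusted p = 0.11 and 0.079). The second of these passes with only the compared groups in the fit, with array weights and with voom, and the first with array weights. In the order of its levels, WT control stood apart from the next group and WT salt from the one above it, while the ranges of the 4 mutant groups between them overlap from each to the next.

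LotjaGi4g1v0298100 was higher in both lines than in WT without salt and in line 1 with salt, and never passed 0.145 FPKM in WT. It lies below the filter of 1 FPKM in 3 libraries, so its tests come from a fit over the 31049 entries with at least 1 read. In line 1 control it had 2.22, 1.19 and 0.801 FPKM and in line 2 control 0.781, 0.891 and 0.639 FPKM, against 0.0854, 0.0425 and 0.145 FPKM in WT control. The WT control values rest on 15, 4 and 21 reads, while the mutant control libraries had 70 to 489 reads. No mutant control library overlaps WT control. The mean FPKM was 15.4 times that of WT control in line 1 and 8.46 times in line 2. The log2 changes of 1.62 and 1.103 passed (SE 0.24 each, adjusted p = 6.00e-04 and 0.0091), where 7.65% and 8.36% of the entries did. A fit of line 1 control and WT control alone gave the line 1 change the same size, and it did not pass (adjusted p = 0.062).

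Under salt, LotjaGi4g1v0298100 had 0.694, 0.853 and 0.845 FPKM in line 1, against 0.0692, 0.140 and 0.0790 FPKM in WT. The WT salt values rest on 9, 22 and 13 reads. The line 1 libraries all lie above those of WT, and the log2 change was 1.12 (SE 0.24, adjusted p = 0.0066, with 10.0% of entries passing). In line 2 salt the values were 0.644, 0.474 and 0.125 FPKM. The third library, with 20 reads, falls within the range of WT salt, and the log2 change of 0.57 did not pass (interval 0.07 to 1.08, adjusted p = 0.12, with 16.6% of entries passing). Without that library the change was 0.83 (adjusted p = 0.028). The mean FPKM ratio over WT salt was 8.29 in line 1 and 4.31 in line 2.

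Salt itself did not move LotjaGi4g1v0298100 past the test in any genotype. Its log2 changes were -0.49 in line 1, -0.51 in line 2 and 0.01 in WT (adjusted p of 0.34, 0.25 and 1, with 5.02%, 5.03% and 10.6% of entries passing). Neither did the salt effects of the lines differ from that of WT past the test, at -0.50 in line 1 and -0.53 in line 2, where 2.43% and 5.23% of entries passed. In line 1 control, replicate 1 held 489 reads against 98 and 70 in the other replicates, and that library lies at the far end of the within-group component. The part this plays was not tested, but leaving that library out kept the control difference from WT at 1.33 on the log2 scale, past the threshold. Within the larger set of libraries alone the control differences from WT were 2.15 for line 1 and 1.12 for line 2, and the salt difference of line 1 was 1.14. The smaller set alone gave 1.45, 1.07 and 1.16. Each set holds only 1 or 2 libraries a group, so only sizes are given here. The sizes depend on how low values are handled. Voom, which works on the recovered reads, gave 4.21 in line 1 control, 3.20 in line 2 control and 3.08 in line 1 salt, all past the threshold. A pseudocount of 0.1 gave 2.90, 2.21 and 2.21, and a pseudocount of 1 gave 1.098, 0.70 and 0.71. In these bulk shoots, more cells that express a gene and more RNA per cell cannot be told apart.

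**Figure D2:**
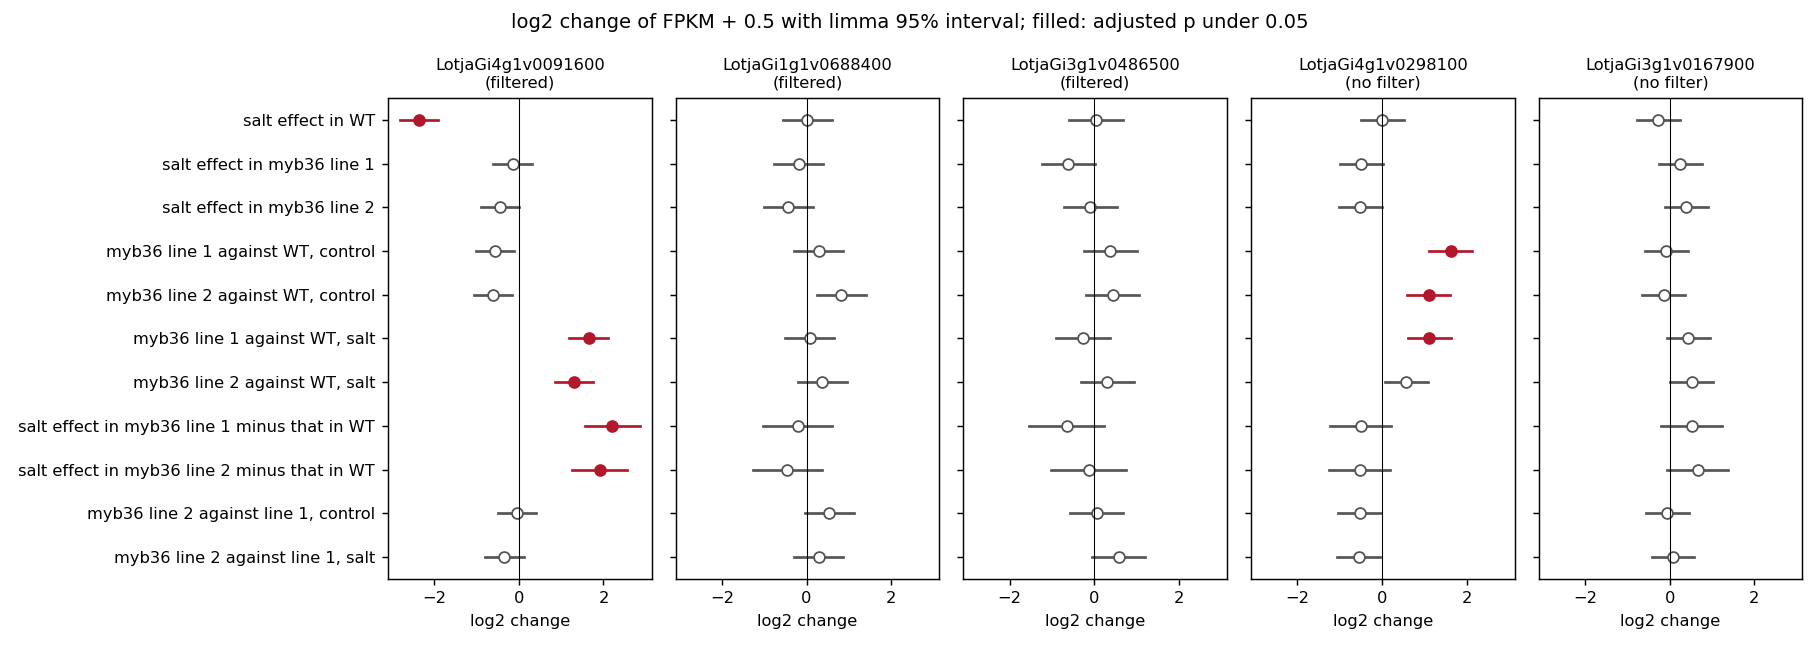
log2 change of FPKM + 0.5 (x axis) with its 95% limma interval for each of the 5 genes in 11 comparisons (y axis); filled red points have an adjusted p under 0.05. LotjaGi4g1v0091600 is called in 5 comparisons and LotjaGi4g1v0298100 in 3, and the other genes in none.

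The remaining 3 genes passed no test in any of the 11 comparisons. LotjaGi1g1v0688400 came nearest, in line 2 control. It had 2.99, 3.15 and 2.23 FPKM there, against 1.07, 1.21 and 1.84 FPKM in WT control. The ranges do not overlap and the mean was 2.03 times that of WT, with a log2 change of 0.82 (interval 0.24 to 1.40, adjusted p = 0.061, where 12.6% of genes passed). That difference passed under 5 of the alternative settings, among them voom (adjusted p = 0.045). In line 1 control the gene had 1.27, 1.85 and 2.26 FPKM, which overlaps WT control.

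With salt, LotjaGi1g1v0688400 had 2.02, 1.91 and 1.83 FPKM in line 2, 1.67, 2.25 and 0.803 in line 1, and 1.51, 0.812 and 2.00 in WT. The 3 groups overlap. The line 2 salt libraries also lie below all line 2 control libraries, without passing (log2 change -0.43, adjusted p = 0.35).

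LotjaGi3g1v0486500 was set apart by a single library. In line 1 salt it had 0.661, 0.818 and 0.0289 FPKM, the last from 4 reads where the others had 79 and 108. In line 1 control it had 1.014, 0.937 and 0.818 FPKM. The log2 change of -0.61 did not pass (interval -1.24 to 0.02, adjusted p = 0.26), and without that library it was -0.20. The ranges of salt and control do not quite meet, the highest salt library and the lowest control library both being at 0.818 FPKM. The library is line 1 salt replicate 3, at the far end of the within-group component, and it also held the lowest value of LotjaGi1g1v0688400 and the highest of LotjaGi4g1v0091600 among the line 1 salt libraries. What sets it apart was not tested.

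In the other groups LotjaGi3g1v0486500 averaged 0.893 ± 0.150 FPKM in line 2 salt and 1.02 ± 0.438 in line 2 control, and 0.632 ± 0.186 in WT salt and 0.600 ± 0.192 in WT control. In line 1 control all 3 libraries lie above all 3 of WT control (log2 change 0.38, adjusted p = 0.47, where 11.7% of genes passed).

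LotjaGi3g1v0167900 was the least abundant, with 10 to 113 reads per library. Under salt it had 0.358, 0.463 and 0.539 FPKM in line 1 and 0.497, 0.544 and 0.474 FPKM in line 2, against 0.292, 0.256 and 0.0699 FPKM in WT salt. Both lines lie above WT without overlap, but the log2 changes of 0.44 and 0.52 did not pass (adjusted p = 0.30 and 0.16). Of all entries, 10.0% and 16.6% passed there. How many entries have ranges without overlap is not given here, so the lack of overlap is a description. In the control groups its libraries spread widely, for example 0.677, 0.1003 and 0.133 FPKM in line 2 control, and the 3 genotypes overlap.

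FPKM is per length, so the levels of the 5 genes can be summed. Their summed level was 7.23 ± 1.35 FPKM in line 1 salt, 6.59 ± 0.689 in line 2 salt and 3.22 ± 0.536 in WT salt (SD, n = 3). In the control groups it was 8.62 ± 1.24 in line 1, 8.90 ± 1.31 in line 2 and 8.79 ± 0.523 in WT. WT salt is the lowest group, and its highest library, at 3.65 FPKM, lies below the lowest of every other group. The control groups overlap. LotjaGi4g1v0091600 made up 53.0% of the sum in line 1 salt, 48.4% in line 1 control, 43.1% in line 2 salt and 45.6% in line 2 control. It made up 27.2% in WT salt and 72.7% in WT control. LotjaGi4g1v0298100 held 6.34% to 15.7% in the mutant groups, against 3.18% in WT salt and 1.02% in WT control. In WT salt the largest share, 43.4%, was that of LotjaGi1g1v0688400.

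**Figure D3:**
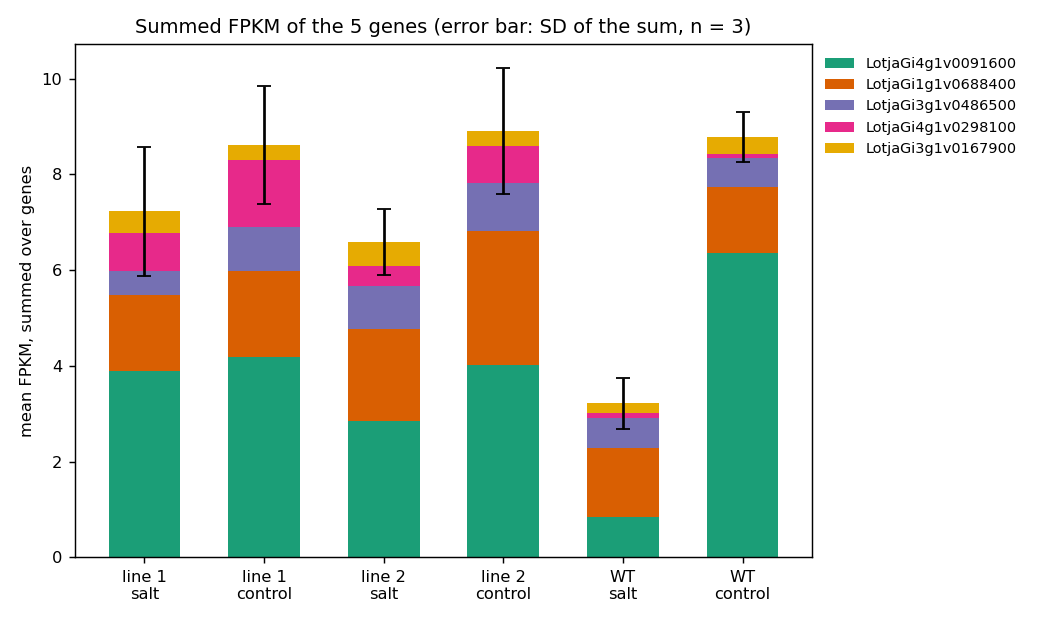
Mean FPKM of the 5 genes stacked (y axis, from 0) for the 6 groups (x axis); the error bar is the SD of the sum over 3 libraries. The WT salt bar reaches 3.22 FPKM and the other 5 lie between 6.59 and 8.90, and LotjaGi4g1v0091600 fills most of the WT control bar.

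Neither comparison of line 2 with line 1 called any of the 5. Of the genes tested, 0.147% passed in control and 1.74% under salt, and without the filter 0.122% and 1.06% did. For LotjaGi4g1v0298100 line 2 minus line 1 was -0.52 in control (interval -1.03 to -0.01) and -0.55 under salt (interval -1.05 to -0.04), with adjusted p of 1 and 0.40. Among all 69 MYB family genes that passed the filter, 2 rose and 14 fell with salt in WT, where 16.3% of all genes tested passed. In the lines under salt against WT, 14 were higher and 1 lower in line 1, and 20 were higher and 2 lower in line 2, beside 16.0% and 25.1% of all genes. In control 5 were higher and 0 lower in line 1, and 4 were higher and 0 lower in line 2. The 69 include LotjaGi4g1v0091600, which is one of the 14 that fell with salt in WT. Under salt it is one of the 14 higher in line 1 and of the 20 higher in line 2. It is not among the 4 or 5 higher in control. Of all genes, 11.7% and 12.6% passed there. All genes tested lean the same way. With salt in WT, 1298 rose and 2025 fell. Under salt against WT, 2293 were higher and 974 lower in line 1, and 3042 and 2083 in line 2. In control these were 1505 and 881 in line 1, and 1476 and 1094 in line 2.

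Over the 18 libraries the highest correlation among the 5 genes was that of one pair. LotjaGi1g1v0688400 and LotjaGi3g1v0486500 had a Pearson r of 0.74 on log2(FPKM + 0.5), and 0.67 without line 1 salt replicate 3. The other 9 pairs lay between -0.11 and 0.33. These values are a description: all rest on the same 18 libraries, which differ in depth, and groups as well as replicates enter them. Deviations from the group means gave 0.72 for that pair, and -0.51 and -0.42 for LotjaGi4g1v0091600 with LotjaGi1g1v0688400 and LotjaGi3g1v0486500. The highest Spearman rho among the other 9 pairs was 0.47, for LotjaGi3g1v0486500 with LotjaGi4g1v0298100.

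The genes most like each of the 3 filtered genes were taken as the 3 with the highest Pearson r over the 18 libraries, among 15517 tested genes with a protein description. For LotjaGi4g1v0091600 they were LotjaGi5g1v0318900, a cysteine-rich receptor-like kinase (r = 0.97), LotjaGi2g1v0125000, a heavy metal-associated isoprenylated protein (r = 0.96), and LotjaGi1g1v0501800, described as MDIS1-interacting receptor like kinase MIK2 (r = 0.96). Each was lowest in WT salt and highest in WT control, like LotjaGi4g1v0091600. Picking genes by the highest r brings this order with it, so it is not a separate result. The isoprenylated protein had 48.5 ± 23.5 FPKM in line 1 salt, 39.3 ± 2.21 in line 2 salt and 8.18 ± 3.70 in WT salt. In control it had 65.0 ± 8.13 in line 1, 67.6 ± 2.95 in line 2 and 108 ± 19.4 in WT. Deviations from the group means alone gave r of 0.56 to 0.77 for these 3 genes. By Spearman rho they ranked 2, 6 and 48.

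For LotjaGi1g1v0688400 the closest were LotjaGi2g1v0344400, a urea-proton symporter of the DUR3 type that carries urea into cells, LotjaGi4g1v0234000, a pantothenate kinase of coenzyme A synthesis, and an entry described as a deoxynucleotidyltransferase-interacting protein. Their r ran from 0.84 to 0.85, and by Spearman rho they ranked 24, 2 and 3. DUR3 was highest in line 2 control, at 5.65 ± 0.750 FPKM, against 3.21 ± 0.393 in WT control. LotjaGi1g1v0688400, for which it was picked, was highest there too. For LotjaGi3g1v0486500 the closest were LotjaGi5g1v0098800, a pentatricopeptide repeat protein of the kind that acts on organelle RNA, LotjaGi5g1v0119900, a major latex protein-like protein, and LotjaGi3g1v0502600, a DPH3 homolog. Their r was 0.79 to 0.83, and 0.68 to 0.71 without line 1 salt replicate 3. In that library each of the 3 had its lowest value of the 18 libraries, as did LotjaGi3g1v0486500, by which they were picked. By Spearman rho they ranked 14, 257 and 5, and with a pseudocount of 0.1 the DPH3 homolog ranked 20. Their place thus depends on the measure.

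**Figure D4:**
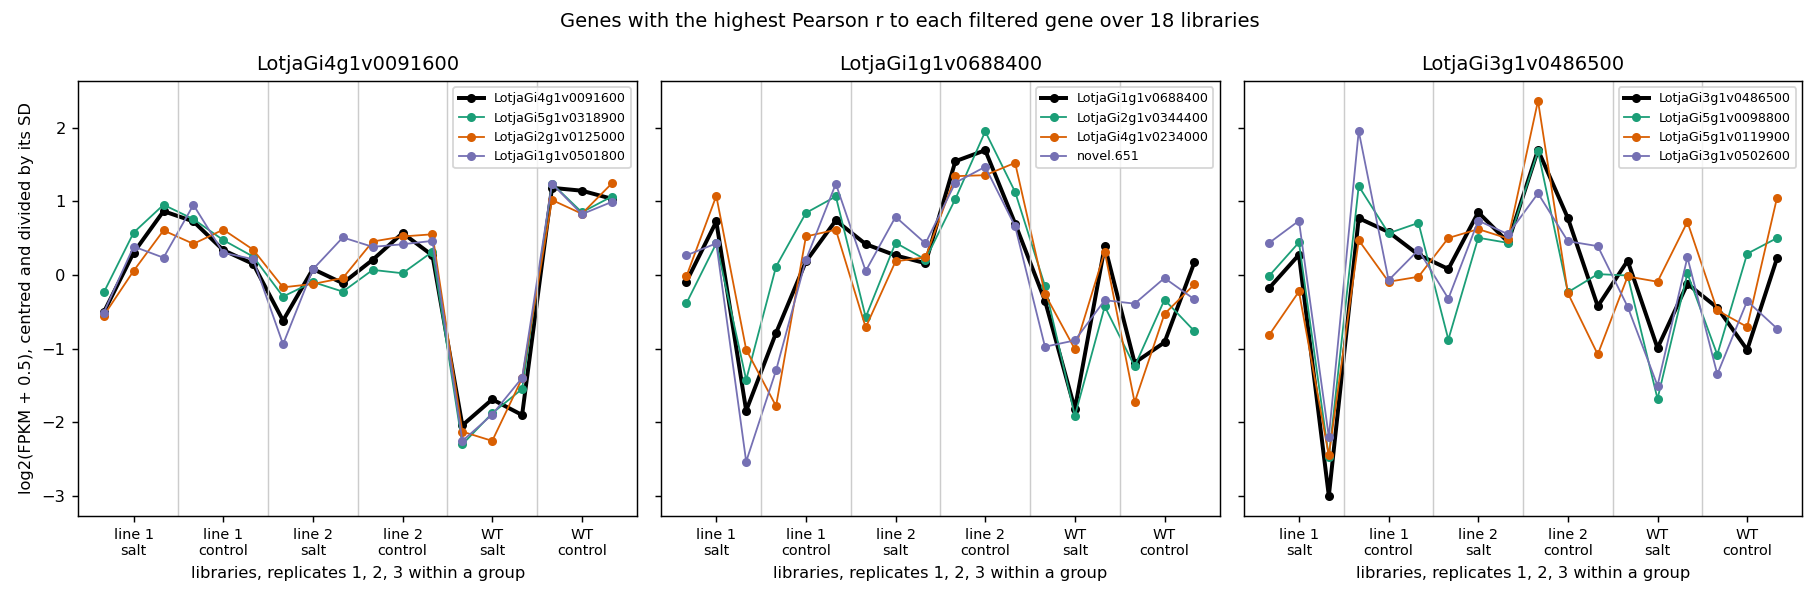
log2(FPKM + 0.5), centred and divided by its SD (y axis), in 18 libraries ordered by group (x axis), for each of 3 genes described as MYB36 (black) and the 3 genes with the highest Pearson r to it (colours). The first panel drops in the 3 WT salt libraries; the third has its lowest black point, at 0.0289 FPKM, in line 1 salt replicate 3.

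The neighbours of the 5 genes on their chromosomes were looked up. Of the 30 nearest entries, 3 on each side of each gene, 22 were tested. Against WT in control, 1 was higher and 0 lower in line 1, and 1 was higher and 1 lower in line 2. Under salt 0 were higher and 3 lower in line 1, and 1 was higher and 3 lower in line 2. Of all genes tested, 11.7% and 12.6% passed in these control comparisons and 16.0% and 25.1% in those under salt. The nearest to LotjaGi4g1v0091600, at 1338 bases, is a CROWDED NUCLEI homolog of the nuclear lamina, and it passed in none of the 11 comparisons. LotjaGi4g1v0091300, the third gene on that side, described as a lysosomal Pro-X carboxypeptidase, was lower under salt in both lines against WT (log2 change -0.53 in line 1 and -0.90 in line 2). The gene between them, LotjaGi4g1v0091400, of the same description, was lower under salt in line 1 only (-0.50). LotjaGi3g1v0168100, near LotjaGi3g1v0167900, was also lower under salt in both lines (-0.36 and -0.37). LotjaGi3g1v0486700, near LotjaGi3g1v0486500, was higher in both lines in control (0.56 and 0.65). Around LotjaGi4g1v0298100 all 6 neighbours were tested, and none passed in the lines against WT in control, where that gene was higher. Of these 6, LotjaGi4g1v0298400, a biotin synthesis enzyme, was lower in line 2 under salt (-0.74, adjusted p = 0.0054).

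Genes around the role of MYB36 in the root were looked up by their descriptions. They include known targets, but also its relatives, genes that act before it, and barrier and suberin genes. The Casparian strip membrane proteins themselves, which build the scaffold of the belt, number 5 in the table and passed the filter in no case. Their summed level was at most 0.906 FPKM in any library, in line 2 salt, and 1 of the 5 was at 0 reads in every library. Their most abundant member, LotjaGi5g1v0099800, averaged 0.0627 FPKM and was at 0 in 12 of the 18 libraries. None of the 5 was tested. The 6 genes named RAX, the closest relatives of MYB36 in Arabidopsis with roles in shoot branching, gave 1 tested gene, LotjaGi2g1v0412300. It had 0.800 ± 0.0376 FPKM in line 1 salt, 1.08 ± 0.680 in line 2 salt and 1.102 ± 0.485 in WT salt, and passed nowhere.

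CASP-like proteins, the wider membrane protein family that includes many genes outside the endodermis, gave 24 tested genes of 37. In control, 3 were higher and 0 lower in line 1 and 2 were higher and 0 lower in line 2 against WT, with medians of 0.20 and 0.11 on the log2 scale against 0.00 and -0.01 over all genes tested. Under salt, 4 were higher and 1 lower in line 1 and 7 were higher and 2 lower in line 2, with medians of 0.13 and 0.23. The shares called were 3 of 24 and 2 of 24 in control and 5 of 24 and 9 of 24 under salt. Over all genes they were 11.7%, 12.6%, 16.0% and 25.1%, also with more genes higher than lower in each. In control the count of higher genes was 1 in line 1 without line 1 control replicate 2 or WT control replicate 3, and 1 in line 2 without line 2 control replicate 3 or WT control replicate 3. Array weights raised the line 1 count to 10. The lower count under salt went to 0 in line 1 without line 1 salt replicate 1 or WT salt replicate 3, and in line 2 without WT salt replicate 3.

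One CASP-like gene had a large difference between both lines and WT. LotjaGi4g1v0346100, described as CASP-like protein 1D2 (chromosome 4, 72560820 to 72562458), had 10.8 ± 3.17 FPKM in line 1 salt and 13.5 ± 3.59 in line 2 salt, against 0.355 ± 0.112 in WT salt. In control it had 17.0 ± 4.17 in line 1 and 16.4 ± 2.17 in line 2, against 1.43 ± 0.567 in WT. The log2 changes were 3.70 and 4.01 under salt and 3.20 and 3.17 in control (adjusted p of 2.13e-08, 7.40e-09, 2.38e-07 and 2.07e-07), and these 4 calls held in all 21 alternatives run for each. It also fell with salt in WT (-1.13, adjusted p = 0.0034), a call that voom and each library set alone did not give (adjusted p up to 0.24). The gene beside it on the chromosome, LotjaGi4g1v0346000 (CASP-like protein 1E1), was the most abundant of the list, with 51.0 ± 2.70 FPKM in line 1 salt, 39.1 ± 2.93 in line 2 salt and 43.4 ± 3.13 in WT salt.

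Further CASP-like genes changed by less. LotjaGi1g1v0630200, described as CASP-like protein 1F3, was higher under salt in line 1 at 13.6 ± 7.22 FPKM and in line 2 at 16.6 ± 2.30 FPKM, against 3.14 ± 0.648 in WT (log2 change 1.84 and 2.24, adjusted p = 2.08e-04 and 2.10e-05). LotjaGi1g1v0075300, described as CASP-like protein 4C1, was higher in all 4 comparisons of a line with WT, by 0.56 to 0.79 on the log2 scale, though 3 of the 4 calls do not hold when one library is left out (adjusted p up to 0.092). Those libraries are line 1 control replicate 2 and WT control replicate 3 for line 1 in control, line 2 control replicate 3 and WT control replicate 3 for line 2 in control, and line 2 salt replicate 1 and WT salt replicate 2 for line 2 under salt.

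Genes that place or control the lignin of the barrier gave 21 tested of 40, most of them dirigent proteins, which steer the coupling of lignin and lignan units. Against WT under salt, 5 were higher and 1 lower in line 1 and 4 were higher and 1 lower in line 2. In control 2 were higher and 1 lower in line 1 and 3 were higher and 1 lower in line 2. The shares over all genes were 16.0% and 25.1% under salt and 11.7% and 12.6% in control, also with more genes higher than lower in each. The control counts are not stable. With one library left out, the count of higher genes was 0 to 2 for line 1 and 1 or 2 for line 2, and that of lower genes 0 or 1 for each line. In line 1 no gene was higher without line 1 control replicate 2, line 1 control replicate 3 or WT control replicate 1, and in line 2 only WT control replicate 2 could be left out with more than 1 gene higher. Under salt, the count of higher genes in line 1 fell to 3 or 4 whichever library was left out. It was 3 without line 1 salt replicate 2 or WT salt replicate 3. LotjaGi1g1v0456400, described as the kinase PBL15 and placed on the list for its Arabidopsis namesake in barrier signalling, was like LotjaGi4g1v0091600 lowest in WT salt and highest in WT control. It had 13.2 ± 3.22 FPKM in line 1 salt and 15.2 ± 1.67 in line 1 control, 14.1 ± 0.291 in line 2 salt and 15.1 ± 0.750 in line 2 control, and 6.02 ± 0.133 in WT salt and 21.2 ± 2.69 in WT control. It fell with salt in WT (-1.73, adjusted p = 1.10e-07), and the salt effect differed from that of WT by 1.501 in line 1 and 1.64 in line 2 (adjusted p = 1.44e-04 and 3.66e-05). Over all genes tested, 16.3%, 4.27% and 8.61% passed in these comparisons. How many genes share this order of groups was not counted.

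Among the dirigent proteins, LotjaGi3g1v0200600 (DIR19) was higher under salt in line 1 at 35.6 ± 9.68 FPKM and in line 2 at 51.2 ± 10.9 FPKM, against 5.47 ± 3.81 in WT (log2 change 2.74 and 3.28, adjusted p = 3.15e-05 and 3.37e-06). LotjaGi3g1v0201000 (DIR20) was higher there too (1.84 and 1.53, adjusted p = 1.39e-06 and 8.13e-06). These genes lie in a row of similar genes on chromosome 3, so reads may be shared or split between them. The most abundant, LotjaGi3g1v0115400 (DIR23), had 220 ± 28.0 FPKM in line 1 salt, 269 ± 31.0 in line 2 salt and 240 ± 23.4 in WT salt, and 324 ± 25.5 in line 1 control. It fell with salt in line 1 (-0.56, adjusted p = 0.018), a call lost without line 1 control replicate 3 or line 1 salt replicate 2 (adjusted p up to 0.082). PER64, a direct target of MYB36 in Arabidopsis, was picked out after its values were seen. Its homolog LotjaGi4g1v0132100 had 9.89 ± 1.60 FPKM in line 1 salt and 11.4 ± 1.15 in line 2 salt, against 16.5 ± 1.79 in WT salt (-0.72 and -0.52, adjusted p = 0.0030 and 0.018). The line 2 call is lost without line 2 salt replicate 1, WT salt replicate 2 or WT salt replicate 3 (adjusted p up to 0.068).

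SHORT-ROOT and SCARECROW, which act before MYB36 in the root, had 3 of 4 genes tested, and none passed between a line and WT. LotjaGi1g1v0461700 (SCARECROW) fell with salt in WT, to 4.13 ± 0.704 FPKM against 5.57 ± 0.281 in control (-0.40, adjusted p = 0.026), a call lost without any one of 4 of the 6 libraries (adjusted p up to 0.13). Of 21 suberin genes 7 were tested. None passed in either line in control or in line 1 under salt, and 1 was higher and 3 lower in line 2 under salt, where 25.1% of all genes passed. The list medians under salt were -0.31 in line 1 and -0.40 in line 2. The 3 that were lower are fatty acyl-CoA reductases, whose relatives in Arabidopsis make alcohols of the leaf wax as well as of suberin. The higher one, LotjaGi1g1v0627900, a feruloyl transferase of suberin (0.38), is named after its values were seen, and its call is lost without line 2 salt replicate 3 or WT salt replicate 1. The reductases are LotjaGi3g1v0478900 (-1.05, adjusted p = 0.0073), its neighbour LotjaGi3g1v0479000 (-0.55, adjusted p = 0.0096) and LotjaGi3g1v0175300 (-0.40, adjusted p = 0.011). The call of LotjaGi3g1v0479000 is lost without WT salt replicate 3 (adjusted p = 0.051) and that of LotjaGi3g1v0175300 without line 2 salt replicate 1 (adjusted p = 0.054).

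In the same comparison of line 2 with WT under salt, 3 of the 20 shoot marker genes were also lower and 0 higher, beside 25.1% of all genes. With one library left out the count was 1 or 2 (1 without WT salt replicate 1), and over all alternatives it ran from 1 to 11. Their summed level was 49281 to 58711 FPKM in line 2 salt, against 60036 to 70968 FPKM in WT salt, without overlap. In line 1 salt the sum was 49756 to 68122 FPKM, which overlaps WT salt, and 0 of the 20 passed there. The part of this shift in the differences of line 2 was not tested. No shoot marker was at 0 in any group.

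**Figure D5:**
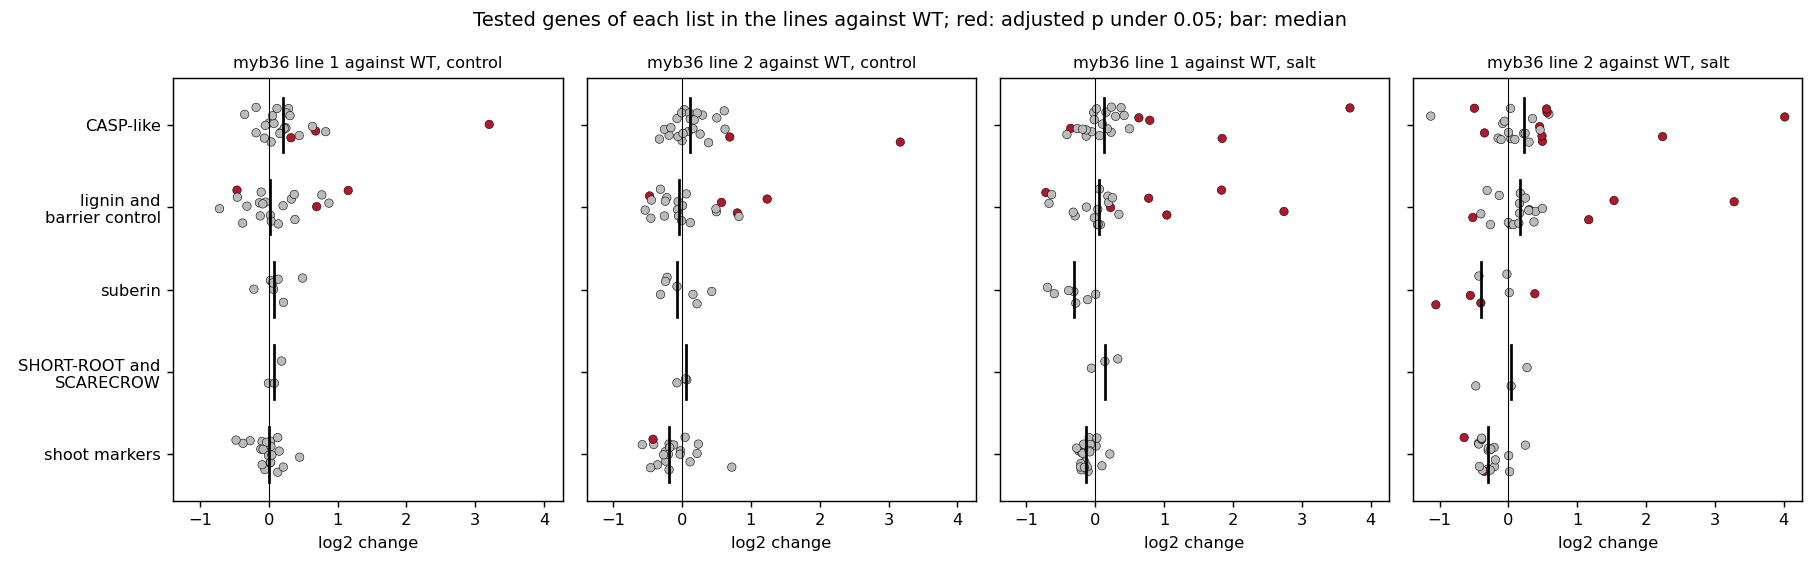
log2 change of the tested genes of 5 lists (y axis, one point per gene) in each line against WT in control and under salt (x axis); red points have an adjusted p under 0.05 and bars are medians. The CASP-like point furthest right, between 3.17 and 4.01 in the 4 panels, is LotjaGi4g1v0346100.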

How the data were processed

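RNA-seq of 18 shoot libraries was analysed from the FPKM table deposited by the authors, which also gives gene lengths, coordinates and descriptions. Per the submitters' processing notes, fastp, featureCounts 1.5.0-p3 and DESeq2 1.20.0 were used. The labels' protocols name dUTP for second-strand synthesis. Aligner, genome build and strand handling during counting were not given in the sources used here. Reads of overlapping or near-identical genes may thus be shared or split. Multiplying FPKM by gene length recovered whole reads in 100% of nonzero cases, within 0.05 of a read. No identifier of the table was found in the RefSeq gene table.

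The tests ran limma 3.58.1 under R 4.3.3, with tables handled in Python 3.11.15 and pandas 2.3.3. Values were log2(FPKM + 0.5), fitted as 6 group means with trended eBayes (12 residual degrees of freedom). The filter kept entries reaching 1 FPKM in 3 or more libraries, which left 20433, among them 3 of the 5 genes. The other 2 were tested over the 31049 entries with at least 1 read. All were two-sided and Benjamini-Hochberg adjusted over every feature of a comparison and a threshold of 0.05. Comparisons of the lines with WT share the WT libraries. Where the ranges of groups are said not to overlap, this is a description. The share of all genes without overlap is not given here.

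Genes named from lists are, per list, the 3 with the smallest adjusted p and the most abundant, with others marked where they appear. Lists are patterns on the descriptions. The 5 genes and the lists were chosen with earlier results of these data known. Same-numbered libraries did not pair: the correlation of their deviations ran from -0.42 to 0.48 over 45 pairs, and 14 exceeded 0.1. Alternatives were pseudocounts of 0.1 and 1, other filters and scalings, only the compared groups, array weights, robust eBayes, a replicate block, voom on the recovered reads, a library set term and leaving out each library. Chosen after seeing the data were each library set alone, scaling to the gene total and the alternatives for listed genes.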

Additional observations from a re-analysis of the deposited data

Results flagged for a closer look

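For LotjaGi4g1v0091600 the salt effect differed between genotypes by a test of the difference itself. The salt effect in line 1 minus that in WT was 2.21 on the log2 scale (limma adjusted p = 2.59e-04), and the salt effect in line 2 minus that in WT was 1.91 (adjusted p = 5.97e-04). Both share the WT libraries. The differences were positive in all 26 alternative settings each, with a lowest and highest value of 1.87 and 2.67 for line 1, and of 1.61 and 2.41 for line 2.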

How the results depend on the processing

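Over 1138 recalculations of the 55 changes of the 5 genes, 1118 kept their direction and side of the threshold or changed sign without a call on either side (57 of them), 9 lost a call, 11 gained one and 0 called values turned round. LotjaGi4g1v0298100 lost its call in line 1 control with only the compared groups (1.62, adjusted p = 0.062). With the 10 libraries of the larger set alone its differences from WT were 2.15 (line 1 control), 1.12 (line 2 control) and 1.14 (line 1 salt), and with the 8 of the smaller set 1.45, 1.07 and 1.16, all uncalled. The smaller set alone also left the salt differences of LotjaGi4g1v0091600 from WT uncalled, at 2.23 in line 1 and 2.36 in line 2. These sets hold 1 or 2 libraries a group. Calls were gained for LotjaGi4g1v0091600 in control, at -0.69 in line 1 with array weights, and in line 2 at -0.61 with only the compared groups, -0.58 with array weights and -0.67 with voom. LotjaGi1g1v0688400 in line 2 control gained one with only the compared groups (0.82), array weights (0.63), voom (1.08), a library set term (0.82) and scaling to the gene total (0.87), and its difference between line 1 salt and WT salt gained one with array weights (0.61). With libraries left out in turn, LotjaGi4g1v0298100 in line 2 salt ran from 0.39 to 0.83. The cause of these shifts was not tested. The replicate block changed no call of the 5 genes (LotjaGi4g1v0091600 in WT with salt stayed at -2.35), and the numbers do not pair the libraries. With a mean FPKM of at least 5 none of the 5 genes is left. Counts over all genes moved by over 1.5 times in 38 of 165 alternatives other than leaving out a library. Examples are line 1 control against WT (2386, with 478 to 7988) and line 2 control against line 1 control (30, with 2 to 400). With a library left out, counts moved in 15 of 78, and that of line 1 control against WT ran from 1416 to 2283. Depth limits LotjaGi3g1v0167900, with 10 to 113 reads per library, and the WT values of LotjaGi4g1v0298100, with 4 to 22.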
